A study of Mus musculus with 13 samples.

Results

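The Creb3l2 locus on mouse chromosome 6 carried 26 Sox9 peaks in rib chondrocytes and 14 in nasal septum chondrocytes. Its members were all peaks, in 4 deposited lists on the mm9 build, whose centre lay between positions 37230000 and 37450000 of that chromosome. They made up 26 of 27656 rib peaks and 14 of 17440 nasal peaks. Of the rib peaks, 2 belonged to the deposited Class I and 24 to Class II, a division of the rib list by the submitters whose basis is not stated in the sources used here. The locus was chosen by the position and density of these same peaks, so its counts are a description and no test was made on them.

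The 2 tissues were chondrocytes freed by enzyme from the ribs of wild-type ICR mice at postnatal day 1, and from the nasal septum of wild-type ICR embryos at day 17.5, both untreated. The same Sox9 antibody was used on both, with 20000000 cells per immunoprecipitation. Each tissue had 1 Sox9 library, so tissue, stage and library cannot be told apart, and whether animals were pooled is not given. The series holds 13 libraries in all, and values of the other 11, for histone marks, p300, RNA polymerase II and controls, were not analysed here. Each peak has a position and no other value, and neither its height nor the reads behind it are known. Place in the list stands in for a score below, although the submitters' order of lines is unexplained. No expression was measured in these files, so the labelled cell type could not be checked against markers.

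Creb3l2, also called BBF2H7, encodes a basic leucine zipper factor that is held in the membrane of the endoplasmic reticulum. Upon load or stress it moves to the Golgi, where proteases release its cytoplasmic part, which enters the nucleus and binds DNA. In chondrocytes it drives genes of the COPII coat such as Sec23a, which carries new collagen out of the endoplasmic reticulum, and mice that lack it make a poor cartilage matrix. Sox9 is the transcription factor without which cartilage cells do not arise, and Creb3l2 has been described as a target of it. In the RefSeq gene order of GRCm38.p6, the nearest protein-coding neighbours are Dgki on the side of the gene's end and Akr1d1 on the side of its start. The noncoding RNA gene Gm33275 follows Creb3l2 in that order, and Gm33318 comes next.

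The promoter of Creb3l2 is shown because the only Class I peaks of the locus lay beside the gene's start. The sequence runs 5′ to 3′ from 250 bases before to 50 bases after the RefSeq start, and it is given on GRCm38.p6, whereas all peaks are on mm9. No position was converted between the builds, so whether a peak falls within these bases was not determined. Capitals mark matches to TGACGT, the core of cyclic AMP response elements, and to ATTGG, the reverse complement of the CCAAT box.
Creb3l2 promoter (chr6:37442099-37442398, minus strand, GRCm38.p6): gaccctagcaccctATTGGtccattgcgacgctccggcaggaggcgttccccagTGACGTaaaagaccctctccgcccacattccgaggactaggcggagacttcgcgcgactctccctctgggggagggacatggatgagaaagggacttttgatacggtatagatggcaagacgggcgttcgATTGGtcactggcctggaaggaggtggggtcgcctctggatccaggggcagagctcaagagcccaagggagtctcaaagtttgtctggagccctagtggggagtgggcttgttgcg

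The SOX core AACAAT was searched on both strands and had 0 matches in this window, where 10.7% of 32851 RefSeq promoter windows of 300 bases hold it. Facing pairs of that core with 3 to 5 bases between them were also at 0 here, and stood in 0.0213% of the windows. ACGTG, a core bound by factors of the Creb3 family, had 0 matches here and stood in 19.6% of the windows. TGACGT had 1 match, at bases 55 to 60 of the sequence, and stood in 7.51% of the windows. ATTGG had 2 matches, at bases 15 to 19 and 185 to 189, and stood in 37.4% of the windows. TGACGT and ATTGG were added after the sequence had been seen, and TGACGT and ACGTG share the bases ACGT. Of the Creb3 family, promoters of 4 genes were in the table, and AACAAT stood in those of Creb3l3 and Creb3l4 and not in those of Creb3 and Creb3l2. In the same 4 promoters, ACGTG stood in 2, TGACGT in that of Creb3l2 alone and ATTGG in 3. COPII genes form the coat of vesicles that leave the endoplasmic reticulum. Of 10 such genes, ACGTG stood in the promoters of 8, among them Sec23a, Sec24d and Sec13, and AACAAT in 0. TGACGT stood in 6 of these 10 promoters and ATTGG in 3. A match of letters is a description and not a binding site.

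Most Sox9 peaks of the locus lay within the gene. The gene was taken to span about 37277000 to 37392000 on the minus strand of mm9, so its start lies at the higher position. This span of 115 kb was not checked against an annotation of that build, and exons and introns were not told apart. Within it stood 23 of the 26 rib peaks and 12 of the 14 nasal peaks, or 2.0 rib peaks and 1.04 nasal peaks per 10 kb. Beyond the start lay 2 rib peaks and 2 nasal peaks, and beyond the end lay 1 rib peak and 0 nasal peaks. Of the peaks within the gene, 14 rib peaks and 8 nasal peaks lay on the side nearer to the start, and 9 rib peaks and 4 nasal peaks on the side nearer to the end. Both tissues thus had more peaks in the 5′ part of this span than in the 3′ part, on small counts that were not tested. Of the 14 nasal peaks, 11 overlapped rib peaks, so the tissues largely show the same sites. The interval of the locus was drawn around the gene.

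**Figure D1:**
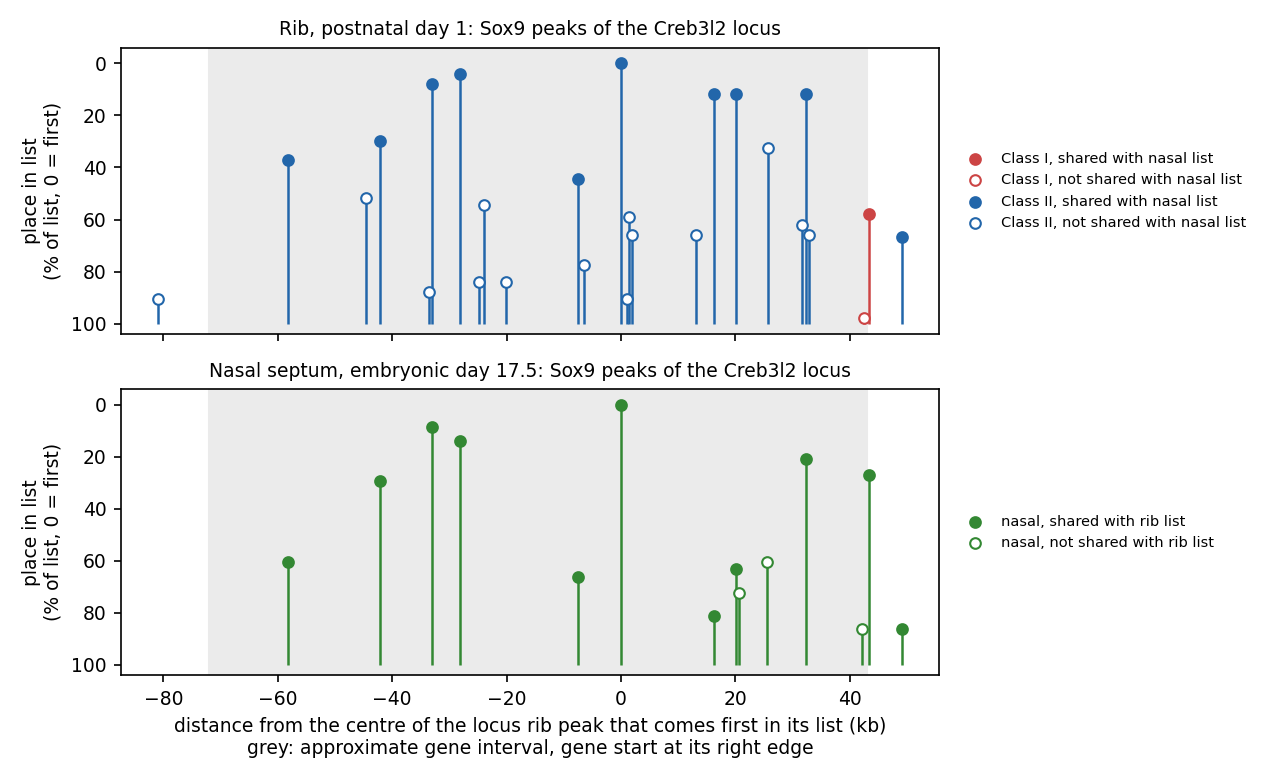
Sox9 peaks of the Creb3l2 locus in rib (top) and nasal septum (bottom), by distance in kb from the centre of the rib peak at place 6 (horizontal) and by place in the list in percent, with the first peak at the top (vertical). Filled points are peaks that share at least 1 bp with a peak of the other tissue, and the grey band is the approximate gene. The peak at place 6 of the rib list meets the peak at place 34 of the nasal list, and 2 Class I peaks stand at the gene's start.

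The members filled 130.3 kb in rib and 107.5 kb in nasal septum, with an empty stretch on either side. Neighbouring rib peaks were a median of 3.72 kb apart, edge to edge, against a median of 23.4 kb between neighbours over the whole rib list. Neighbouring nasal peaks were a median of 6.74 kb apart, against 35.7 kb over the whole nasal list. These short distances restate that the locus was chosen for its density. The longest rib gap inside the locus, 22.3 kb, ran from 37268277 to 37290605, and the longest nasal gap, 20.4 kb, from 37320898 to 37341346. On the side of the gene's start, no rib peak followed for 447.6 kb and no nasal peak for 422.2 kb. Gaps at least as long made up 3.47% of the gaps of the rib list and 6.46% of those of the nasal list. On the other side the empty stretch was 101.3 kb in rib and 139.6 kb in nasal septum, and 18.2% of rib gaps and 19.9% of nasal gaps were as long.

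The limits of the interval did not cut through the cluster. The outermost members in rib were the peaks at 37267957 to 37268277 and 37398052 to 37398257. The nearest rib peaks outside lay at 37166536 to 37166669 and 37845810 to 37845873, both Class II, at places 20373 and 22905. In nasal septum the outermost members lay at 37290674 to 37290817 and 37398083 to 37398208. The nearest nasal peaks outside lay at 37150946 to 37151122 and 37820397 to 37820746, at places 15056 and 15544.

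Few windows of the genome held as many peaks, which restates how the locus was chosen. Among 6909 windows of 220 kb that held a rib or nasal peak, 5 held at least 26 rib peaks, or 0.0724%, and 1 of these is the window with all 26 members. The median window held 3 rib peaks and the fullest 42. At least 14 nasal peaks stood in 41 windows, or 0.593%, where the median was 2 and the maximum 34.

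**Figure D2:**
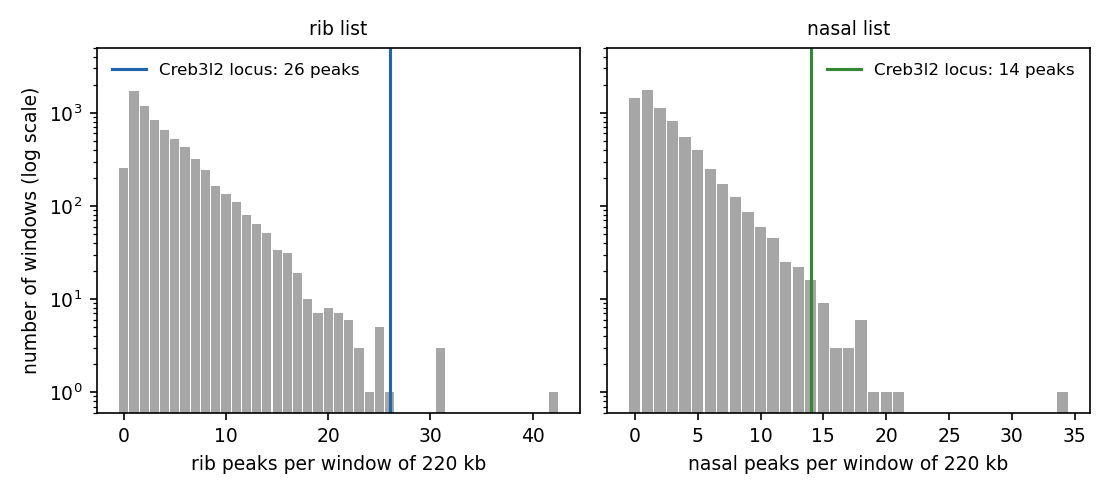
Number of windows of 220 kb (vertical, log scale) by the number of rib peaks (left) or nasal peaks (right) they hold, over 6909 windows with a peak of either list. The coloured lines mark the 26 rib peaks and 14 nasal peaks of the Creb3l2 locus, with 5 and 41 windows at or beyond them.

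A single site near the middle of the locus came close to the top of both lists. The rib peak at 37348950 to 37349106, of Class II and 157 bp wide, stood at place 6 of 27656. The nasal peak at 37348955 to 37349095, 141 bp wide, stood at place 34 of 17440, lay wholly within the rib peak and had its centre 3 bp away. This site lies 43.0 kb inside the gene from its start. Of the first 100 rib peaks, 95 were overlapped by a nasal peak, and 15 by one that was itself among the first 100 of its list. The pair in Creb3l2 was 1 of those 15.

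That site was also the most crowded of the leading peaks. Within 50 kb of the rib peak at place 6 stood 23 other rib peaks, where the first 100 rib peaks had a median of 4 and a maximum of 23. Within 50 kb of the nasal peak at place 34 stood 12 other nasal peaks, where the first 100 nasal peaks had a median of 2 and a maximum of 12. In each list, no other peak among the first 100 had as many neighbours. Since the locus was picked for its density, this describes the choice together with the site's place in the list.

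**Figure D3:**
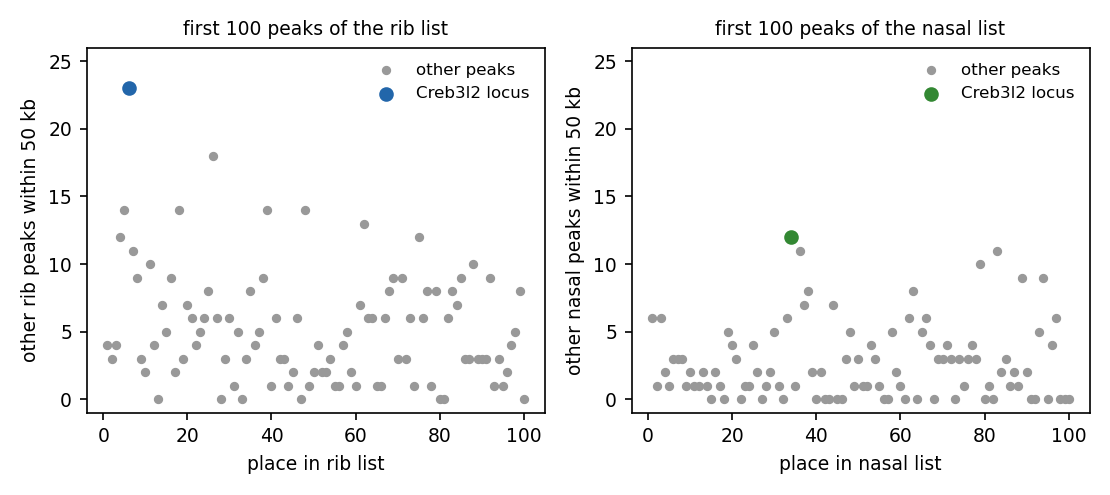
Number of other peaks of the same list within 50 kb (vertical) for each of the first 100 peaks by place in the list (horizontal), in rib (left) and nasal septum (right). The Creb3l2 peaks at place 6 and place 34 have 23 and 12 neighbours, and each is the highest point of its panel.

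The other leading peaks lay on both sides of that site and were mostly shared by the tissues. After place 6, the next rib peaks of the locus by place stood at 1166, 2234, 3289 and 3293. The rib peak at place 1166 spanned 37320727 to 37320961 and met a nasal peak at place 2430, from 37320717 to 37320898. The rib peak at place 2234 spanned 37315832 to 37315986 and met a nasal peak at place 1485, from 37315817 to 37315991. These sites lay 71.2 and 76.1 kb inside the gene from its start.

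On the other side, 3 rib peaks held nearly equal places. The rib peaks at 37365286 to 37365381, 37369099 to 37369272 and 37381380 to 37381555 stood at places 3299, 3289 and 3293. Their nasal partners stood far apart in the nasal list. The nasal partner of the rib peak at 37381380 was at place 3607 and spanned 37381314 to 37381537. The nasal partner of the rib peak at 37369099 was at place 10980, and that of the rib peak at 37365286 at place 14180. These 2 sites were thus early in the rib list and late in the nasal list, at 11.9% and 11.9% of the rib list but 63.0% and 81.3% of the nasal list.

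The Class I peaks of the locus stood near the gene's start. That start is approximate and was not checked, so which of these peaks lies upstream of it is not settled by the distances below. The Class I peak at 37392387 to 37392530, 144 bp wide, had its centre 0.458 kb beyond the start, on its upstream side, and stood at place 15959. It met a nasal peak at 37392364 to 37392519, which stood at place 4692, the fifth among the nasal peaks of the locus. The Class I peak at 37391408 to 37391590, 183 bp wide, had its centre 0.501 kb inside the gene and stood at place 27095, the last of all 26 rib peaks. No nasal peak overlapped it, and the nearest, at 37391024 to 37391215 and place 15052, ended 192 bp away. The nearest Class II peak to the start, at 37398052 to 37398257, lay 6.15 kb upstream at place 18498. It met the nasal peak at place 15051.

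Class II peaks made up 92.3% of the rib peaks of the locus (24 of 26, 95% exact binomial interval 74.9% to 99.1%), against 75.4% of the whole rib list. The intervals in this text cover counting error alone, and peaks of 1 library are not replicates. The locus was known to be rich in Class II peaks when it was chosen, so nothing is read from this share.

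About as large a part of the rib peaks was shared with nasal septum as in the rib list at large. Nasal peaks overlapped 11 of the 26 rib peaks, or 42.3% (95% exact binomial interval 23.4% to 63.1%), against 42.8% of all rib peaks. Among Class II peaks, 10 of 24 were overlapped, or 41.7% (22.1% to 63.4%), against 34.4% of all Class II peaks. Of the 2 Class I peaks 1 was overlapped, against 68.8% of all Class I peaks. Seen from the nasal list, rib peaks overlapped 11 of the 14 members, or 78.6% (49.2% to 95.3%), against 68.2% of all nasal peaks. The whole-list shares of rib, Class II and nasal peaks lie within the intervals of the locus. With the rib list cut into 10 parts by place, and every rib member given the share of its class and part, 9.04 of the 26 would be overlapped. The same over 10 parts of the nasal list gave 9.62 of the 14.

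Where the tissues shared a peak, the 2 peaks lay close to each other. The centres of the 11 pairs were 1.5 to 46.5 bp apart with a median of 18 bp, against a median of 35 bp over all shared rib peaks. The closest pair was that at 37369099 to 37369272 in rib, with the nasal peak at 37369126 to 37369242 inside it. The pairs shared 92 to 172 bp, with a median of 139 bp. All 11 pairs also shared at least 50% of both peaks, as did 66.4% of the overlapped peaks in the whole rib list and 66.1% of those in the whole nasal list. Counted over all peaks, that rule was met by 42.3% of rib members and 78.6% of nasal members, against 28.4% of all rib peaks and 45.1% of all nasal peaks.

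Shared rib peaks stood early in the list and rib-only peaks late. The median place was 3299 for the 11 shared members and 18260 for the 15 rib-only members, against 9291 and 16690 over the whole rib list. The groups overlapped, since the earliest rib-only member was at place 9047 and the latest shared member at place 18498. Up to place 9219, 7 of 8 members were shared, against 63.9% of all rib peaks there and 59.6% of Class II peaks. From there to place 18438, 3 of 10 were shared, against 37.5% and 25.1%. In the last 9218 places, 1 of 8 was shared, against 27.1% and 12.7%. The fall along the list is thus seen in the members as in the whole list, on 8 to 10 peaks for each part.

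The nasal members showed the same order. The median place was 5121 for the 11 shared nasal peaks and 12642 for the 3 others, against 6981 and 12095 over the whole nasal list. Up to place 5814, 6 of 6 nasal members were shared, against 86.9% of all nasal peaks there. From there to place 11627, 3 of 4 were shared, against 69% of all nasal peaks there. Among the last 5813 places, 2 of 4 were shared, against 48.7%.

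**Figure D4:**
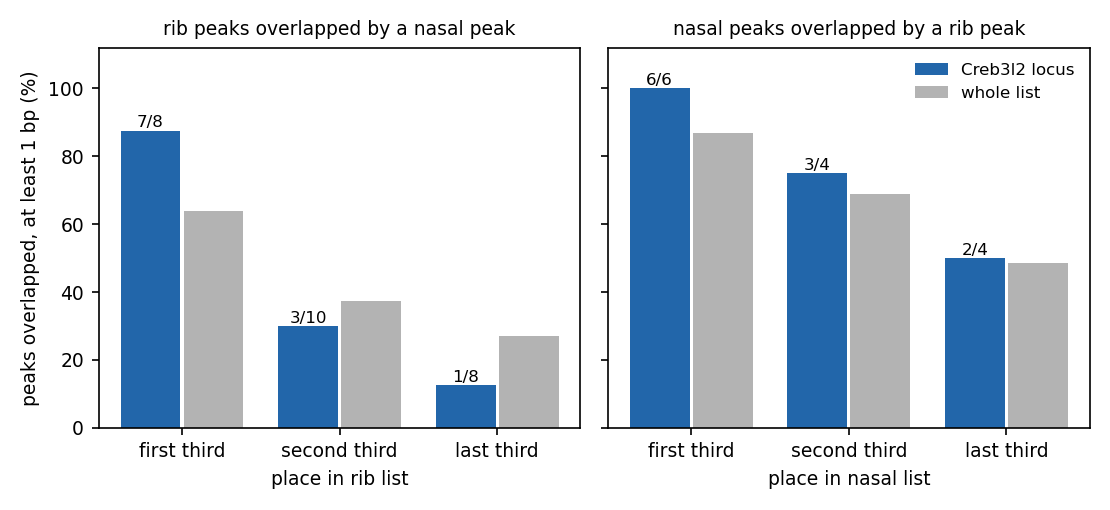
Share of peaks that a peak of the other tissue overlaps by at least 1 bp (vertical, percent) in 3 equal parts of the list by place (horizontal), for rib peaks (left) and nasal peaks (right). Blue bars are the Creb3l2 locus with counts above them, grey bars the whole list, and the rib members drop to 1 of 8 in the last part against 7 of 8 in the first.

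Within the 11 pairs, place in one list went with place in the other. The Spearman correlation of rib and nasal places was 0.718 across the 11 pairs, which come from 1 library per tissue. Across all shared rib peaks it was 0.383. No interval was computed for the 11 pairs, so no difference between these values is read. The rib peak stood earlier, relative to the length of its list, in 9 of 11 pairs, against 55.7% of all shared rib peaks and 75.7% of those in Class II. The exceptions were the Class I pair near the start and the pair at 37306729 in rib. The former stood at 57.7% of the rib list and 26.9% of the nasal list, the latter at 30.0% and 29.4%. Places differed by a median of 19.4 percentage points, against 20.6 over all shared peaks. The widest difference, 69.4 points, was that of the pair at 37365286, and 3.87% of all shared rib peaks differed by as much.

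**Figure D5:**
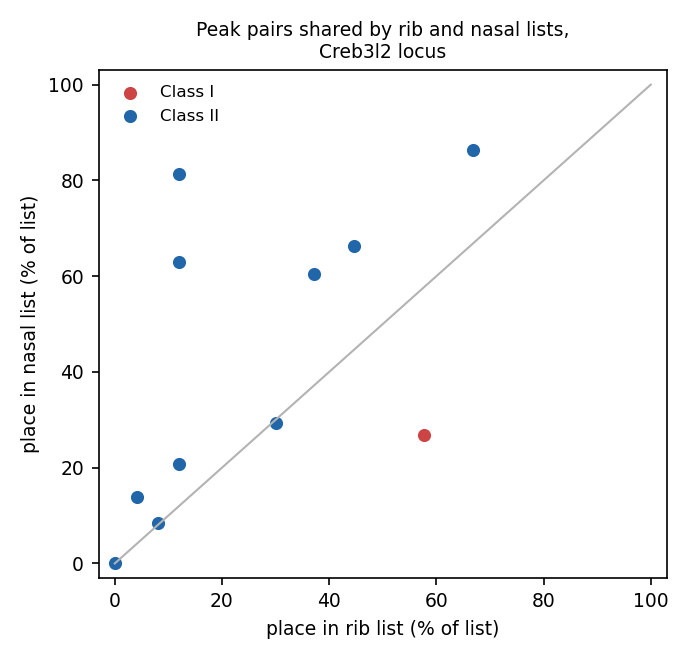
Place of the 11 shared peaks in the rib list (horizontal) and in the nasal list (vertical), both in percent of the list, with the line of equal place. Of the 11 points, 9 lie above the line, where the rib peak stands earlier, and the Class I pair lies below it at 57.7% and 26.9%.

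Apart from 1 member beyond the gene's end, the rib-only members were spread through the gene in short runs between shared sites. The longest run held 4 rib-only peaks from 37349967 to 37362309, just beyond the site at place 6, at places 25023, 16277, 18258 and 18259. A run of 3 stood between 37324049 and 37328931, at places 23210, 15081 and 23216, within the longest nasal gap. Of the 15 rib-only members, 7 had a nasal peak within 1 kb, edge to edge, against 12.4% of all rib-only peaks. The locus was chosen for its density of peaks, so nothing is read from this difference. The earliest of them by place, 9047, spanned 37374602 to 37374815 and stopped 25 bp short of a nasal peak. The rib-only member farthest from the gene's start, at 37267957 to 37268277 and place 25020, had its nearest nasal peak 22396 bp away.

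All 3 nasal peaks without a rib overlap lay beside a rib peak. The nasal peak at 37374529 to 37374576, 48 bp wide and at place 10556, lay 25 bp from a rib peak. That at 37391024 to 37391215 lay 192 bp from the later-listed Class I peak. That at 37369517 to 37369761, at place 12642, lay 244 bp from the rib peak at place 3289. Over the whole nasal list, 31.0% of the peaks without a rib overlap had a rib peak within 1 kb, and 21.9% of all nasal peaks had none. In the locus 0 of 14 nasal peaks had none, which by the limit of 3 counts allows a share of up to 21.4%. The 21.9% of the list lies just above that limit. The limit is approximate for 14 peaks, so no difference from the list is read. Every nasal site of the locus therefore had a rib peak within 1 kb. A nasal peak lay that near to 18 of the 26 rib peaks, or 69.2%, against 49.9% of all rib peaks. Peaks are dense in the locus by choice, so these near neighbours are no separate trait of it.

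Peaks of the locus were of ordinary width. The median was 166.5 bp in rib and 158.5 bp in nasal septum, against 180 bp and 182 bp over the whole lists. The widest rib peak, 373 bp, lay at 37304358 to 37304730, at place 14325 and without a nasal overlap. The widest nasal peak, 245 bp, was that at 37369517 to 37369761, and the narrowest rib and nasal peaks had 62 and 48 bp. Rib peaks that were shared had a median of 174 bp and rib-only peaks one of 153 bp, against 180 bp and 181 bp over the whole list. Together the rib members covered 4476 bp and the nasal members 2261 bp.

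The rib peaks of the locus fell into chains. With gaps of up to 10 kb allowed, the longest chain held 10 rib peaks over 36.1 kb, from 37362157 to 37398257, and ran across the gene's start with 8 nasal peaks within it. It held both Class I peaks. With gaps of up to 5 kb, the longest chain held 6 rib peaks and lay elsewhere, from 37315421 to 37328931 within the gene, with 2 nasal peaks in it. With gaps of up to 25 kb, all 26 rib peaks formed a single chain. Of the 25 gaps between neighbouring rib peaks, 9 were under 1 kb, against 1 of the 13 nasal gaps. The share of such gaps over the whole lists, and chains elsewhere in the genome, were not counted. Chains and short gaps restate that the locus was chosen for its density, so nothing is read from these counts.

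The locus was set beside the other windows of 100 kb that lead in Class II peaks. Its own window, 37300001 to 37400000, held 24 rib peaks, with 22 in Class II, and nasal peaks overlapped 10 of the 24, or 41.7%. Of the 37 rib peaks at chromosome 15, 97800001 to 97900000, nasal peaks overlapped 43.2%. The share was 38.9% of 18 peaks at chromosome 7, 124600001, 35.3% of 17 at chromosome 17, 45900001, and 31.2% of 16 at chromosome 3, 27500001. The interval of the Creb3l2 window, 22.1% to 63.4%, contains all 4 of these shares.

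The windows also differed in the places of their peaks in the list. Its earliest rib peak was at place 6, against places 322, 26, 239 and 501 in the windows on chromosomes 15, 7, 17 and 3. Its median rib place was 16118, against 14485, 9265.5, 9527 and 13625. The first 50% of the rib list held 37.5% of its rib peaks, against 45.9%, 72.2%, 70.6% and 50% in those windows. In the rib list it thus had the earliest leading peak and the latest median of these 5 windows, a difference that was not tested. In the nasal list its leading peak, at place 34, was also the earliest of the 5. The median nasal place of the Creb3l2 window was 10556. That was later than 8194, 9171.5 and 7108 in the windows on chromosomes 15, 7 and 17. It was earlier than the 13517 of the window on chromosome 3. Over the whole Creb3l2 locus, the first 50% of the list held 10 of 26 rib peaks and 6 of 14 nasal peaks.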

How the data were processed

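Sox9 ChIP-seq peak lists of rib and nasal septum chondrocytes were analysed. Per the labels' protocols, cells were fixed with 1% formaldehyde for 10 minutes, 9 μg of antibody was used, and libraries from fragments of 100 to 600 bp had 18 cycles of PCR. The authors deposited 4 lists of chromosome, start and end on mm9, per the submitters' processing notes. The aligner, the peak caller, the control and the class definition are not stated in the sources used here. The names of all 4 lists carry the same FDR tag, and how that threshold was applied is not explained there. Positions are the deposited ones with 1 added to the start.

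Overlap meant at least 1 shared bp, and windows were laid side by side from the chromosome start. Intervals of shares are 95% exact (Clopper-Pearson), except that the share of 0 of 14 nasal peaks has the limit of 3 counts. Background shares run over whole lists, the locus included. The text names the Class I peaks, the 5 first peaks of each list, nasal peaks without a rib overlap, the widest peaks, the peaks nearest to the gene's start and those at the limits. Other peaks are named as runs or exceptions, chosen after their values were seen. Members and lists were chosen with earlier results of these data known. No p-value was computed, as peaks are not replicates. Promoter sequences are from RefSeq on GRCm38.p6. Overlap routines were tested on simulated lists. Intervals came from scipy 1.17.1 and figures from matplotlib 3.10.9, under Python 3.11.15 with pandas 2.3.3.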

Additional observations from a re-analysis of the deposited data

How the results depend on the processing

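Of 33 recomputed values of 12 results, 24 stayed within the interval of the value as reported or within 1.5 times its count. Some of the 33 are other quantities by construction, such as the share in the first 25% of the list or windows of 100 kb. The count of 24 is therefore no measure of stability. With gaps of up to 1 kb counted as overlap, 69.2% of rib members and 100% of nasal members were shared. The stricter rule of 50% of both peaks left both shares at 42.3% and 78.6%. The approximate gene interval alone held 1 Class I peak. On chromosome 6 alone, 0.257% of windows held as many rib peaks, and with windows of 100 kb 0.0613% held as many nasal peaks. The longest rib chain had 6 peaks with gaps of up to 5 kb and 26 with gaps of up to 25 kb. The first 50% of the list held 38.5% of the rib members and 42.9% of the nasal members. The first 25% held 23.1% and 28.6%, and the first 10% held 11.5% and 14.3%. Each share is to be set against the size of its own part of the list. Members were thus fewer than that size in the first 50% and not in the first 10%. The causes of the changes in this section were not tested. No paired analysis was possible because each tissue had 1 Sox9 library and no test was made. Depth is unknown, so a site found in one tissue alone may be below the threshold in the other, which was not tested.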

Other observations

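Some members followed each other in the rib list itself. The rib peaks at 37350826, 37362157 and 37381810 held the consecutive places 18258, 18259 and 18260, although the sites lie up to 31.0 kb apart. In the nasal list, the peaks at 37398083 and 37391024 held places 15051 and 15052. Other members stood only a few lines apart, at rib places 23210 and 23216, rib places 25020 and 25023, and nasal places 10554 and 10556. How far place can be read as a score is thus not known. Over the whole lists, 1.28% of neighbouring lines in rib and 1.34% in nasal septum named peaks whose centres lay within 100 kb of each other. The order of lines is unexplained in the labels, and whether such peaks carried equal scores was not tested.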
